A study of Homo sapiens with 16 samples.

Results

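ALL-SIL is an established human leukemia line of the T-ALL type (T-cell acute lymphoblastic leukemia), in which T cells are arrested while still immature. It was chosen by its cell line label and is 1 of the 16 T-ALL lines of the study, set here against the other 15, namely CCRF-CEM, DU528, HSB-2, JURKAT, KOPT-K1, LOUCY, MOLT-16, MOLT-4, P12-ICHIKAWA, PEER, PF-382, SKW-3, SUP-T11, SUP-T13 and TALL-1. The choice also named the TLX1 level of ALL-SIL, so that level is a description. Every line was grown without treatment in RPMI-1640 medium with fetal bovine serum and antibiotics, and total RNA was taken after 24 hours. The RNA of each line went to 1 Affymetrix U133 Plus 2.0 array, a chip that reads most genes with 1 or more sets of short probes. There was no control group of normal T cells.

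TLX1 is a homeobox gene that is silent in normal thymocytes and is switched on in some T-ALL, often by a translocation that joins it to a T-cell receptor locus. T-ALL with TLX1 usually resembles cortical thymocytes, an intermediate stage of T-cell development in the thymus, and often carries NOTCH1 and tyrosine kinase lesions. As background, ALL-SIL is known for TLX1 and for a fusion of NUP214 with the tyrosine kinase ABL1.

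Values are linear array intensities, and 1 probe set stood for each of 19735 genes. Differences are given on the log2(intensity + 16) scale, which understates those of genes with low values. A gene was set apart in ALL-SIL where ALL-SIL lay at least 2 log2 units, or 4-fold on that scale, beyond the nearest other line. With 1 array a line there was no replicate error, and an exact permutation test of 1 line against 15 cannot give a one-sided p below 0.0625. No difference below was therefore tested, and "higher" and "lower" compare single arrays. The median intensity of the ALL-SIL array was 38.1, in a range over arrays from 37.6 to 45.0, with 42.4 over the whole table. Its upper quartile of 302 was the next to highest of 16, and its ratio of 3' to 5' ACTB control signal was 1.64 in a range from 1.44 to 2.03.

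The identity of the line as a T cell was checked on 9 T-lineage markers. Of these, 8 lay above 4 times the table median in ALL-SIL, among them CD3D at 12710, the kinase LCK at 4889, CD7 at 2392 and the transcription factor BCL11B at 6754. CD2, an adhesion receptor of T cells, was the exception at 35.4, where the other lines ran from 11.1 in DU528 to 5051 in SKW-3 with a median of 505. In ALL-SIL none of 11 myeloid markers was above 44.3 and none of 10 HLA class II genes above 65.3, while the highest B-cell marker read 221 and the highest natural killer and cytotoxic marker 2099.

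TLX1, whose level was part of the choice, had the widest gap to the next line among the 19735 genes. Its probe set read 2192 in ALL-SIL, while the other 15 lines ran from 2.56 in CCRF-CEM to 47.1 in LOUCY with a median of 16.7. ALL-SIL alone was high, and the gap to LOUCY was 5.13 log2 units. TLX1 had no further probe set naming it alone. Only 5 of 19735 genes were set apart high, which is 0.0253% of the genes. The other 4 were a pair of genes of the ABC transporter family, a receptor tyrosine kinase and a tyrosine phosphatase.

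CFTR, a chloride channel of epithelia, read 3952 in ALL-SIL. The other lines ran from 4.47 in SKW-3 to 779.8 in MOLT-4 with a median of 9.73, and KOPT-K1 at 482 and PEER at 129.8 were the next. The gap was 2.32, and a pair of further CFTR probe sets gave gaps of 2.81 and 2.39, with 4014 and 2742 in ALL-SIL. On the other 3 CFTR probe sets no line was above 37.5. CFTR thus stood apart on 3 of its 6 probe sets. Measured from the median of the other lines, CFTR was farther above than TLX1, by 7.27 against 6.08 log2 units.

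FGFR3, a receptor for fibroblast growth factors, read 578 in ALL-SIL and between 2.57 in MOLT-16 and 113 in PF-382 in the others, with a median of 40.2 and a gap of 2.20. PTPN13, a large cytoplasmic tyrosine phosphatase, read 803 in ALL-SIL and from 1.25 in TALL-1 to 166 in CCRF-CEM in the others, with a median of 13.9 and a gap of 2.17. ABCC8, the regulatory subunit of the potassium channel that controls insulin release, read 338 in ALL-SIL and from 13.04 in TALL-1 to 54.9 in HSB-2 in the others, with a gap of 2.32. In all 3 the ALL-SIL value lay outside the range of the other lines, as the rule requires, but their further probe sets differed. That of PTPN13 was again highest in ALL-SIL, with 45.6 against at most 13.6 and a gap of 1.06. The 45.6 lay near the table median of 42.4, a level that cannot be told from background here. The further probe sets of ABCC8 and FGFR3 gave ALL-SIL rank 4, at 9.08 and 34.8, and read no more than 16.1 and 39.0 in any other line.

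Just outside the threshold lay PDGFRB and ID1. PDGFRB, a receptor tyrosine kinase of mesenchymal cells that is also a fusion partner in leukemia, read 493 in ALL-SIL and from 3.86 in KOPT-K1 to 122 in TALL-1 in the others, with a gap of 1.88. ID1, which holds back E proteins, read 4985 against 1503 in PF-382, the next line, with a gap of 1.72. FGFR3 and PTPN13 were the last genes inside it.

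**Figure D1:**
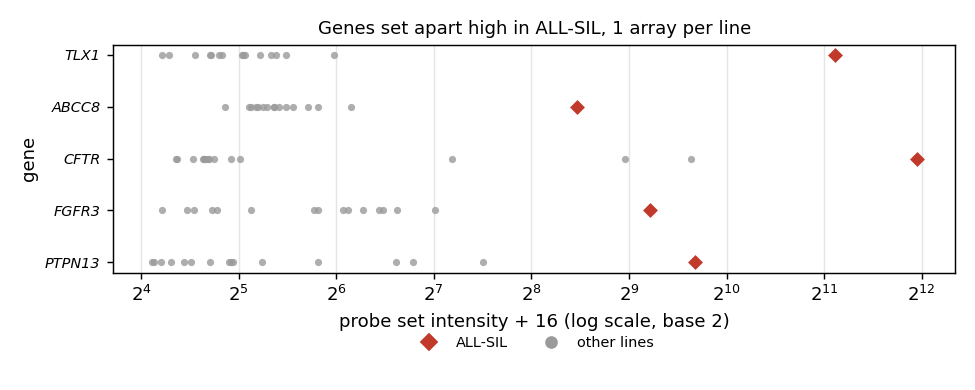
Probe set intensity + 16 on a log axis (base 2) for the 5 genes set apart high in ALL-SIL, with 1 point per line from 1 array each (diamonds, ALL-SIL; circles, the other 15 lines). TLX1 at 2192 stands far from the next line at 47.1, while for CFTR KOPT-K1 and MOLT-4 lie between ALL-SIL and most other lines.

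The low side was longer. In ALL-SIL 33 genes were set apart low, which is 0.167% of the genes. A gap of 2 needs every other line at 48 or more, so the rule itself puts those lines above the table median. ALL-SIL itself was under the table median in 31, with values from 2.12 to 123 and a median of 12.2. The medians of the other 15 lines for these genes ran from 192 to 2187. The gap was 3 or more in 19 genes and 4 or more in 6. The genes lay on 12 chromosomes with at most 4 on any of them, and the line nearest to ALL-SIL was SUP-T11 in 5 genes, DU528 in 4 and another of 12 lines in the rest.

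PIM3, a serine/threonine kinase that supports survival and growth, had the widest gap. It read 12.2 in ALL-SIL and from 839 in SUP-T11 to 3140.3 in JURKAT in the others, with a median of 1575 and a gap of 4.92. SMIM30, which encodes a small membrane protein, read 24.1 in ALL-SIL against 1156 in JURKAT, the next line, and a median of 1746. HDHD5, of the haloacid dehalogenase family, read 30.4 against 1241 in DU528 and a median of 2187. In these 3 genes the lowest of the other lines read at least 839, and ALL-SIL was under the table median.

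Upstream sequences are shown to compare the starts of genes at both ends. A start in DNA rich in CG pairs was common to most low genes, but also to most genes that the rule could have called low. Such CpG islands are a common form of promoter of widely expressed genes. The 250 bases before the annotated start were read from RefSeq (GRCh38.p14), where 26 of the 33 low genes matched, and CG was counted, a pair that reads the same on both strands. PIM3 (chr22:49960522-49960771, plus strand, 47 CG) had the widest gap. MGMT (chr10:129466991-129467240, plus strand, 36 CG) is a DNA repair gene with a classic CpG island. HDHD5 (chr22:17165288-17165537, minus strand, 4 CG) had the fewest CG of the low genes, and TLX1 (chr10:101131050-101131299, plus strand, 14 CG) is the gene that defines the line. Capitals mark CG, and all are written 5′ to 3′ on the strand of the gene.
PIM3: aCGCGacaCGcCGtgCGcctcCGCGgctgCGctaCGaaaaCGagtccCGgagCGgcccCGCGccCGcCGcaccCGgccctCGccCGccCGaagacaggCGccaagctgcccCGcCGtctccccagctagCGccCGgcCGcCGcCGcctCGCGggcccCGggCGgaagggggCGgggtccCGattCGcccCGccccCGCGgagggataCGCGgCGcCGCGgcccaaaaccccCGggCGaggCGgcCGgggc
MGMT: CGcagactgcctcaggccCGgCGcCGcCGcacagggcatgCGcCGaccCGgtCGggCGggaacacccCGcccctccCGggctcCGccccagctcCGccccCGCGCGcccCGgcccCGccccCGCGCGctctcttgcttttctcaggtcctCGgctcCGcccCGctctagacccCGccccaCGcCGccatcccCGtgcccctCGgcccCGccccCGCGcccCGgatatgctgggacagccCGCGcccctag
HDHD5: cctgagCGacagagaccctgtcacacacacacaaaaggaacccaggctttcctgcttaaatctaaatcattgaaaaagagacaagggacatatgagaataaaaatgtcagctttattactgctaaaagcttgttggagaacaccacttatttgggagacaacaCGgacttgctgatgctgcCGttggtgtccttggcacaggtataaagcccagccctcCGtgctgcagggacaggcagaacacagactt
TLX1: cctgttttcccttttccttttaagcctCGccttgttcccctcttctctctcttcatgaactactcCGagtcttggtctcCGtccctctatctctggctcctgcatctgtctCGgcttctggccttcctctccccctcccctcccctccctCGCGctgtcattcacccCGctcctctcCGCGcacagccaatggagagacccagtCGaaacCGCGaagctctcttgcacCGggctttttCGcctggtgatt

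The low genes had a median of 25 CG in this window, with an interquartile range from 20 to 31.75. Genes that could have been set apart low, those at 48 or more in every other line, had a median of 22 (15 to 28, 6973 promoters), and all measured genes with a promoter had 18 (15382 promoters). At least 15 CG were found in 88.5% of the low genes, 77.5% of those that could have been called and 58.5% of all. The low genes were thus rich in CG, but most genes expressed in all of the other lines were so too. PDK1, with 5 CG, and HDHD5, with 4, had windows poor in CG. ACVR1B with 48, PIM3 with 47 and TP53BP2 with 44 had the most. This count was added after the values were seen.

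Several low genes encode enzymes, grouped here only for reading. PDK1, a mitochondrial kinase that inhibits pyruvate dehydrogenase, read 2.92 in ALL-SIL and from 446 in PF-382 to 1989 in JURKAT in the others, with a median of 868. NT5C3B, a nucleotidase, read 12.6 against 539.8 in DU528 and a median of 1300.2. NT5DC1, another protein with a nucleotidase domain, read 19.4 against 331 in KOPT-K1 and a median of 695. DGKE, a lipid kinase that phosphorylates diacylglycerol, read 9.86 against 204 in PEER and a median of 347. MGST3, a microsomal glutathione transferase, read 23.3 against 451 in SKW-3 and a median of 1901. In each of these the whole range of the other lines lay above ALL-SIL, as the rule requires.

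MGMT, which removes alkyl groups from guanine in DNA, read 4.30 in ALL-SIL. The other lines ran from 195 in DU528 to 1833 in MOLT-16 with a median of 1209.9, and the gap was 3.37. DU528 was the only other line far below the rest. TP53BP2, a partner of p53 in apoptosis, read 16.9 in ALL-SIL against 261 in MOLT-16 and a median of 1027.

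The remaining genes among the widest 20 gaps had varied roles. PAG1, a membrane adaptor that brings the inhibitory kinase CSK to LCK, read 5.45 in ALL-SIL, while the others ran from 166 in PF-382 to 3820.2 in CCRF-CEM with a median of 1732. SLC15A4, a lysosomal transporter of histidine and peptides, read 5.88 against 483 in SUP-T11 and a median of 804. CSRP1, a LIM-domain protein tied to actin, read 16.3 against 464 in TALL-1 and a median of 1042. LRRC1, a leucine-rich repeat scaffold, read 8.27 against 179.7 in DU528 and a median of 308. IFT27, a small GTPase of the ciliary transport machinery, read 14.03 against 290.3 in KOPT-K1 and a median of 485. TMEM168, a membrane protein, read 12.8 against 234 in HSB-2 and a median of 664, and ANKRD50, an ankyrin-repeat protein, 6.33 against 229 in SUP-T13 and a median of 619.6. PAG1 had the widest spread among the other lines, with a gap of 3.08 between ALL-SIL and PF-382.

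HOXB3, a homeobox gene, read 12.5 in ALL-SIL and from 203 in SKW-3 to 4434 in LOUCY in the others, with a median of 528 and a gap of 2.94. TLE4, a corepressor of the Groucho family, read 13.1 against 227 in P12-ICHIKAWA and a median of 643. ZNF518B, a zinc finger protein, read 8.91 against 266 in LOUCY and a median of 618. The other 13 low genes, listed to complete the 33, had gaps from 2.06 to 2.83: FAM234B, SOCS5, CLCN5, VPS37B, HIVEP2, LONRF1, MSANTD3, PKIA, ZMAT1, HOXB4, CRYBG1, ASB13 and ACVR1B. CRYBG1 at 95.1 and ACVR1B, an activin receptor, at 123 were the pair that stayed above the table median in ALL-SIL. The last genes inside the threshold were ASB13 (gap 2.15) and ACVR1B (2.06). The first outside were RAP2B, at 413 in ALL-SIL against 1699 in TALL-1 with a gap of 1.999, and LPGAT1, at 73.6 against 327 in SUP-T11, with a gap of 1.94.

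**Figure D2:**
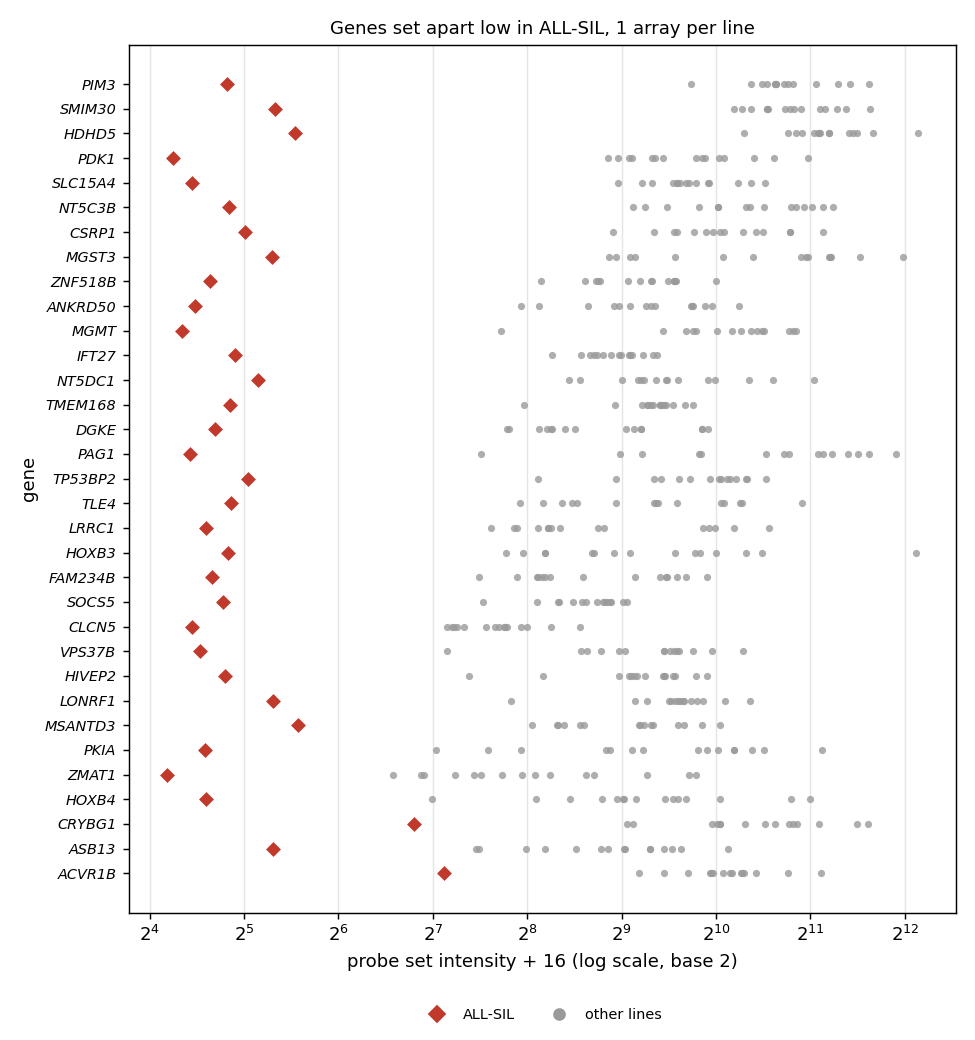
Probe set intensity + 16 on a log axis (base 2) for the 33 genes set apart low in ALL-SIL, ordered by gap, with 1 point per line from 1 array each (diamonds, ALL-SIL; circles, the other 15 lines). By the rule ALL-SIL lies left of every other line in each gene, from a gap of 4.92 for PIM3 to 2.06 for ACVR1B.

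Further probe sets were used as a check. Of the 33 low genes 22 had 48 further probe sets and 11 had none. A gap of 2 can be seen only where every other line reads at least 48, which held for 15 of these probe sets, from 12 genes. ALL-SIL was the lowest line on 15 of these 15. The gap was 1 or more on 13, from 11 genes, and 2 or more on 6. Among all further probe sets that met the same condition, 0.398% had ALL-SIL lowest with a gap of 1 or more, 28 of 7037, a number that includes the 13.

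The widest of these gaps were 3.69 for SLC15A4 (22.5 in ALL-SIL, 482 in the next line), 3.51 for NT5DC1 (7.12 and 247), 2.86 for MSANTD3 (12.2 and 189) and 2.68 for SOCS5 (5.20 and 120.3). PAG1 followed with 2.25, and PKIA, an inhibitor of protein kinase A, with 2.19. For PDK1 the further probe set gave 1.82, for TLE4 1.82 and for TMEM168 1.39. MGST3 was the exception: its further probe set read 47.6 in ALL-SIL and from 48.57 to 74.98 in the others, a gap of 0.02. On the other 33 further probe sets, where at least 1 other line was under 48, ALL-SIL was lowest in 20. Their gaps ran from 0.01 for a ZNF518B probe set to 1.42 for one of IFT27. The share over all probe sets of this kind was not computed. The low genes without a probe set at 48 or more in every other line, PIM3, SMIM30 and HDHD5 among them, rest on 1 probe set at this depth of signal.

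Genes next to the low genes along the chromosome were then read, 5 measured genes on each side. Of 312 such neighbours that were not set apart themselves, 17 (5.45%) lay at least 2 below the median of the other lines, where 2.43% of all genes did so. ALL-SIL was the lowest line in 12.8% of the neighbours and in 8.15% of all genes. Of the 33 low genes 16 had a neighbour at least 2 below the median of the other lines, here also counting neighbours set apart themselves. The same share over all genes was not computed. Among the 33, 4 lay within 5 genes of another low gene, as HOXB3 lies beside HOXB4 and SMIM30 near TMEM168. Most neighbours of the low genes were thus not low.

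Around HOXB3 and HOXB4 on chromosome 17, HOXB7 read 10.2 in ALL-SIL, the lowest of 16, against a median of 194, and SKAP1, a T-cell adaptor, 2.56, also the lowest, against a median of 605. Between HOXB4 and HOXB7, HOXB5 at 51.3 and HOXB6 at 6.39 were near the others' medians of 52.1 and 10.2. Around DGKE, also on chromosome 17, ALL-SIL was lowest for C17orf67 (20.5, others' median 78.1), for NOG, an inhibitor of bone morphogenetic proteins (1, median 228), and for PCTP, a lipid carrier (14.4, median 442). On the other side of DGKE, TRIM25 at 2466 and AKAP1 at 2936 were highest in ALL-SIL. Beside HIVEP2 on chromosome 6 AIG1 read 6.98 against a lowest other value of 59.3, and beside CLCN5 on chromosome X USP27X read 8.25 against 73.7. PIM3 on chromosome 22 had CRELD2 as its neighbour at 483, again the lowest line but close to the next at 615. Beside PDK1 on chromosome 2, ITGA6 read 72.5 against a median of 1634, with KOPT-K1 lower at 32.5. On the other side of PDK1, beyond RAPGEF4-AS1 at 26.4 (median 22.5), MAP3K20 read 7.99 against a median of 1247. LOUCY at 7.19 and TALL-1 at 4.85 were lower still for MAP3K20. The low runs described here were short and were broken by genes at usual levels.

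To set these counts in context, the same rule was applied to every line. ALL-SIL had 5 genes set apart high, a number it shared with MOLT-4 and CCRF-CEM, where the counts ran from 1 in P12-ICHIKAWA to 70 in LOUCY. Without KOPT-K1 the high count in ALL-SIL was 8. Its 33 low genes came after SUP-T11 with 53, TALL-1 with 37 and DU528 with 36, and 2 lines had 1 each. By distance from the median of the other lines, 211 genes (1.07%) were at least 2 above in ALL-SIL and 479 (2.43%) at least 2 below. The number below was the largest of the 16 lines and the number above the next to smallest. Across the 14927 genes above the table median in at least 1 line, the profile of ALL-SIL was nearest to KOPT-K1 (r = 0.918, mean absolute log2 difference 0.576) and farthest from SUP-T11 (r = 0.852 and 0.813). These correlations describe genes of the same arrays, which are not independent.

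**Figure D3:**
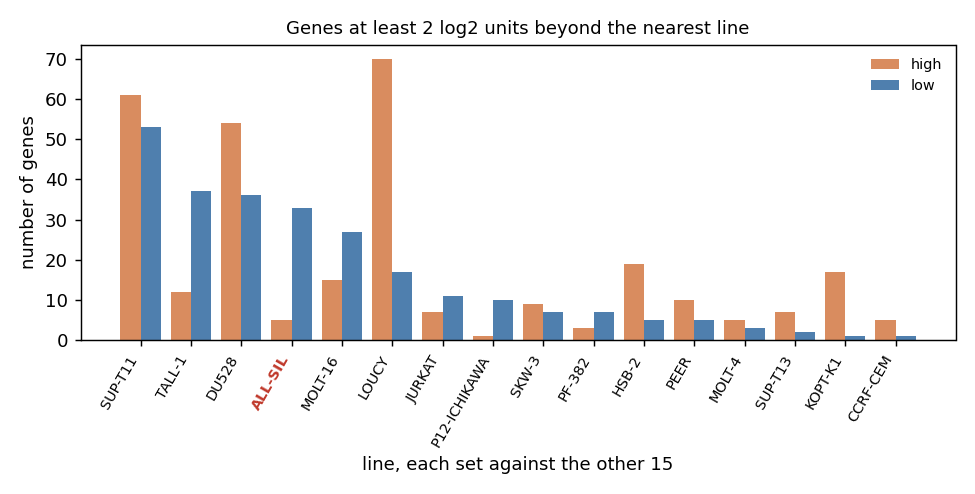
Number of genes set apart by at least 2 log2 units from the nearest line, high and low, for each of the 16 lines against the other 15, from 1 array per line. ALL-SIL has 5 high and 33 low genes, while LOUCY has 70 high and 17 low.

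Some genes were extreme in ALL-SIL and in exactly 1 other line. This description was added after the values were seen. On the low side 31 genes (0.157%) lay at least 2 below the remaining 14 lines in ALL-SIL and a partner, which was DU528 or TALL-1 in 7 genes each, KOPT-K1, LOUCY, MOLT-16 or PEER in 3 each, HSB-2 or JURKAT in 2 each and SUP-T11 in 1. On the high side 5 genes (0.0253%) met the rule, with KOPT-K1, PEER or CCRF-CEM as the partner. SMIM20, a mitochondrial protein, had the widest low gap with 5.12. It read 2.95 in ALL-SIL and 5.78 in TALL-1 and from 742 to 1499 in the remaining 14. GNB4, a G protein subunit, read 8.56 in ALL-SIL and 19.0 in JURKAT against at least 971, and ACAA2, an enzyme of mitochondrial fatty acid oxidation, 15.02 in ALL-SIL and 5.92 in PEER against at least 844. PRNP, the prion protein gene, was shared with TALL-1, the early activation receptor CD69 with MOLT-16 and the laminin receptor subunit ITGA6 with KOPT-K1. No single line shared most of the low genes.

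On the high side EPHB1, an ephrin receptor tyrosine kinase, read 2057 in ALL-SIL and 1119 in KOPT-K1 against at most 134 elsewhere. REG4, a secreted lectin of the gut, read 1684 in ALL-SIL and 2531 in PEER against at most 199. CTTNBP2, SMPD3, a sphingomyelinase, and ENPEP, an aminopeptidase, were the other 3.

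RB1, the retinoblastoma tumour suppressor that restrains entry into S phase, was shared with HSB-2. Its main probe set (203132_at) read 3.14 in ALL-SIL and 2.67 in HSB-2. SUP-T11 read 324, and the remaining 13 lines ran from 2169 in MOLT-16 to 6298 in JURKAT. A further RB1 probe set (211540_s_at), singled out after its values were seen, went the other way. It was highest in HSB-2 at 1139 and in ALL-SIL at 838, while the others ran from 23.1 in SUP-T11 to 362 in PF-382. ALL-SIL and HSB-2 thus stood at the bottom on one RB1 probe set and at the top on the other, and what part of the transcript each reads was not tested.

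On chromosome 13, LPAR6 and RCBTB2, which adjoin RB1 on one side in the measured order only, were also low in both lines. LPAR6, a lysophosphatidic acid receptor whose gene lies inside an intron of RB1, read 6.45 in ALL-SIL and 3.8 in HSB-2, but MOLT-16 at 7.79 and P12-ICHIKAWA at 8.19 were as low, and the highest line was LOUCY at 3521. RCBTB2, the next measured gene, read 19.96 in ALL-SIL and 9.08 in HSB-2 against at least 369.6 in SUP-T11 and a median of 3253. On the other side ITM2B at 6740.3 and MED4 at 3229.8, and FNDC3A at 1623 beyond RCBTB2, were in ALL-SIL near or above the others' medians of 6904, 3101 and 1034. CYSLTR2 read 35.3 in ALL-SIL and at most 37.9 in any line. Of the 18 genes measured in the list around RB1, 3 lay at least 2 below, namely RB1, RCBTB2 and LPAR6, and 0 above. Among all genes 2.43% lay that far below and 1.07% above. The median difference of the list was 0.0018, where that of all genes was -0.030.

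The other 11 genes of that list lay within 0.81 log2 units of the others' median. ESD at 4268, LCP1 at 2819, an actin bundling protein of blood cells, and SUCLA2 at 1246 were among the lower lines, ranked 15, 14 and 15 of 16. CAB39L (103), TRIM13 (946), DLEU1 (1292), DLEU2 (1283), CDADC1 (858), SETDB2 (251), HTR2A (77.3) and MLNR (2.93) ranked between 4 and 14. The 3 low genes of the list were adjacent in the measured order.

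**Figure D4:**
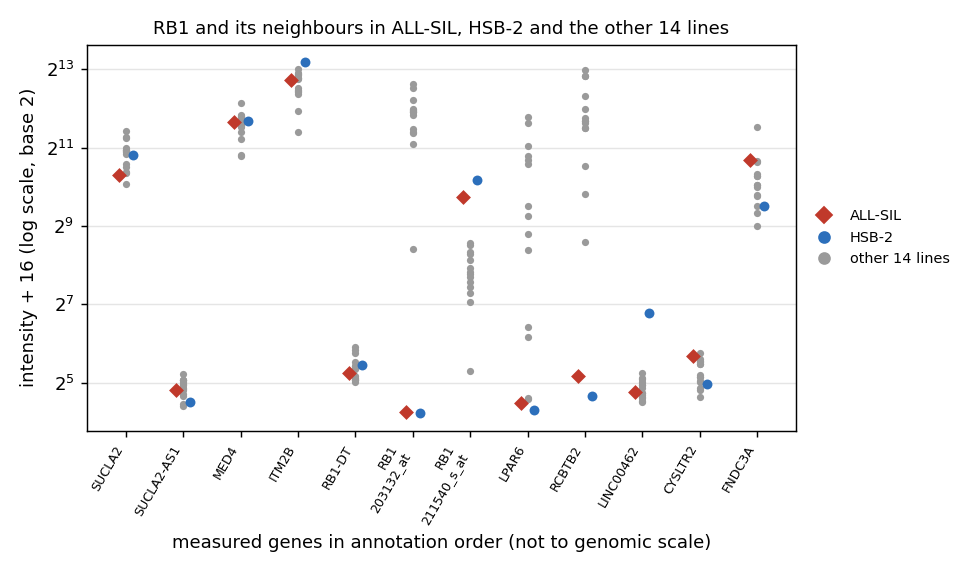
Intensity + 16 on a log axis (base 2) for RB1, on 2 probe sets, and its measured neighbours in annotation order and not to genomic scale, with 1 array per line (diamonds, ALL-SIL; larger circles, HSB-2; small circles, the other 14 lines). ALL-SIL and HSB-2 lie at the bottom on probe set 203132_at (3.14 and 2.67) and in RCBTB2, and at the top on probe set 211540_s_at (838 and 1139).

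Around TLX1 on chromosome 10, of 21 measured genes 3 lay at least 2 above the median of the others and 0 below, where 1.07% and 2.43% of all genes did so. They were TLX1 itself, which the choice used, POLL, a DNA polymerase of repair, which read 149 in ALL-SIL and 184 in MOLT-16 with a median of 15.5, and DPCD, at 391.75 in ALL-SIL and 701 in PEER with a median of 62.4. The genes nearest to TLX1 went both ways in rank. TLX1NB read 28.2, the lowest of 16 lines, against a median of 61.5, and KAZALD1 25.1, also the lowest, against 46.6, while LBX1 read 1.61 against 2.67 with rank 13. LBX1-AS1 at 43.2, against a median of 31.1, and SFXN3, a mitochondrial carrier, at 713 were highest in ALL-SIL. Farther off, SEMA4G read 15.8 against 34.1.

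The remaining genes of that list lay within 0.61 log2 units of the others' median. In order of difference they were OGA at 2026 in ALL-SIL, LZTS2 at 58.1, TWNK at 889, FBXW4 at 445, KCNIP2 at 47.8, NOLC1 at 7444, NPM3 at 1083, FGF8 at 18.1, MRPL43 at 1056, HPS6 at 169, LDB1 at 421, BTRC at 327 and PDZD7 at 24.6. Of the 3 genes above, only TLX1 was the highest line in ALL-SIL.

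Of the 22 homeobox genes tied to T-ALL 14 were measured, with 3 at least 2 above and 2 at least 2 below, where 1.07% and 2.43% of all genes did so. TLX1, which the choice used, was joined on the high side by PITX1, at 391 in ALL-SIL and 2072 in LOUCY with a median of 11.4, and by MEIS2, a cofactor of HOX proteins, at 647 in ALL-SIL and 476 in MOLT-16 with a median of 34.5. The low pair were HOXB3 and HOXB4, which read 8.28 in ALL-SIL and from 112 in SKW-3 to 2022 in LOUCY in the others. TLX3, the relative of TLX1 that other T-ALL carry, read 6.2 in ALL-SIL and at most 18.6 in any line. TLX2 read 21.1 in ALL-SIL and 1298 in SKW-3, NKX2-5 7.65 and 1300.2 in CCRF-CEM, and HHEX 9.43 and 3370.3 in LOUCY. PBX3, a partner of HOX proteins, read 1197, next to LOUCY at 1983. MEIS1 (4.94), NKX2-1 (40.4) and NKX2-2 (6.94) were under the table median in ALL-SIL. TLX2, NKX2-5 and HHEX thus had their high values in other lines.

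Other oncogenic transcription factors of T-ALL formed a further list. Of 15 measured, 0 lay at least 2 above and 4 at least 2 below, where 1.07% and 2.43% of all genes did so. TAL1 read 14.7, the lowest of 16, where JURKAT read 3586 and KOPT-K1, LOUCY, TALL-1, SUP-T11 and P12-ICHIKAWA read 19.6 or less. LMO2, a partner of TAL1, read 17.4 against a median of 561, and was as low in JURKAT, TALL-1 and SUP-T11. BCL11A, a zinc finger factor, read 12.1 against 1585, and DU528 (9.91), HSB-2 (10.8) and SUP-T11 (14.2) read as little. ERG read 6.19 against a median of 109 and MYCN 6.33 against 65.1, and each was the lowest line. In TAL1 and BCL11A ALL-SIL joined a low set of lines rather than standing alone.

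Among 20 measured T-lineage transcription factors 1 was at least 2 above and 1 below, where 1.07% and 2.43% of all genes were. RUNX3 read 3392 in ALL-SIL and 5093 in HSB-2, with a median of 835. ID2, an inhibitor of E proteins, read 118 against a median of 853, while ID3 of the same family read 3521 against 873 and came next to SUP-T11 at 12964. ETS2 read 2911 against 940, and TOX2 4.94 against 67.4. The difference of ID3 was 1.99, just under the rule of 2.

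Cortical thymocyte genes did not set ALL-SIL apart. Of 13 measured, 0 lay at least 2 above and 1 below, where 1.07% and 2.43% of all genes did so. The 1 below was the water channel AQP3 at 337 against a median of 1551. The CD1 antigen-presenting genes CD1E and CD1B read 872 and 920, rank 8 of 16 in each, with 8796 in MOLT-4 and 9328 in P12-ICHIKAWA. CD1A read 394 against a median of 904, and the recombinase RAG1 256 against 129.8. Among 19 measured receptor chains and signalling genes 3 lay at least 2 below and 0 above. Over all genes the shares were 2.43% and 1.07%. The 3 were CD2, the costimulatory receptor CD28 at 24.8 against 221, and TRBC1. TRBC1, a constant region of the beta chain, read 2959 in ALL-SIL and from 9148 in JURKAT to 17607 in MOLT-4 in the others, so that no other line overlapped. TRBC2, its near-identical partner, may share its probes, so the reading is uncertain. CD247, the zeta chain, and THEMIS read 3902 and 2107, above their medians of 2025 and 920.

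Of 16 measured early progenitor genes, SPINK2 alone lay at least 2 below, at 6.69 against 105, and 0 lay above. Over all genes 2.43% lay below and 1.07% above. CD44, an adhesion receptor, read 627 against 1462, and IGFBP7 (4.32) and BAALC (27.9) were under the table median.

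NOTCH pathway genes had a median difference of 0.59 over the 22 measured, with 2 at least 2 above and 1 below. Over all genes the shares were 1.07% and 2.43%. The receptor NOTCH3 read 2025 in ALL-SIL and 3955 in TALL-1 with a median of 303, and its target DTX1 1301 in ALL-SIL and 4490 in KOPT-K1 with a median of 204. The target HES1 read 1783 against 587, and LFNG, which modifies NOTCH receptors, 133.15 against 32.8. HES4, another target, read 8.76 against 529, as low as in HSB-2 (9.58), SKW-3 (9.59), DU528 (8.24), SUP-T11 (8.81) and SUP-T13 (3.13). HES1 and HES4 therefore went opposite ways in ALL-SIL.

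Genes that answer to cytokine receptors and STAT5 were the list with the most members above. Cytokine receptors act through JAK kinases on STAT5, which turns on its own inhibitors of the SOCS family and the PIM kinases. Of 26 genes measured 8 lay at least 2 above and 2 below, with a median difference of 0.31, where 1.07% and 2.43% of all genes did so. SOCS2 read 8378 in ALL-SIL, the highest line, and from 55.7 in TALL-1 to 4603 in KOPT-K1 in the others with a median of 282. CISH read 5436, next to HSB-2 at 5856 and KOPT-K1 at 5513, with a median of 261. SOCS1, named with OSM and IL2RB after their values were seen because they complete the 8, read 2338 against 175. These 3 were high in ALL-SIL, HSB-2 and KOPT-K1. Other SOCS genes were not: SOCS3 of the list read 78.7 against 119, and SOCS5, outside the list, was set apart low, at 11.5 against at least 168.

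PIM1 read 3123 in ALL-SIL against a median of 131, below HSB-2 at 5131 and SUP-T13 at 4540.35. Its relative PIM3 had the widest low gap, and PIM2 of the same list read 97.6 against 80.3. The kinases of this family thus ranked 3, 16 and 6 in ALL-SIL. ID1 at 4985 was highest in ALL-SIL, and DUSP6, a phosphatase that curbs ERK, read 9112, next to HSB-2 at 10799. The cytokine OSM read 316 against 22.9 and the receptor chain IL2RB 2003 against 430. STAT5A (514) and STAT5B (1749) themselves lay near their medians of 651 and 1466. The 2 members below were SPRED1, an inhibitor of RAS signalling, at 3.96 against 127, and the cyclin CCND2 at 27.8 against 175. HSB-2 was the highest line for PIM1, CISH, DUSP6, SOCS1 and OSM, and in these 5 ALL-SIL ranked 2 to 4.

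**Figure D5:**
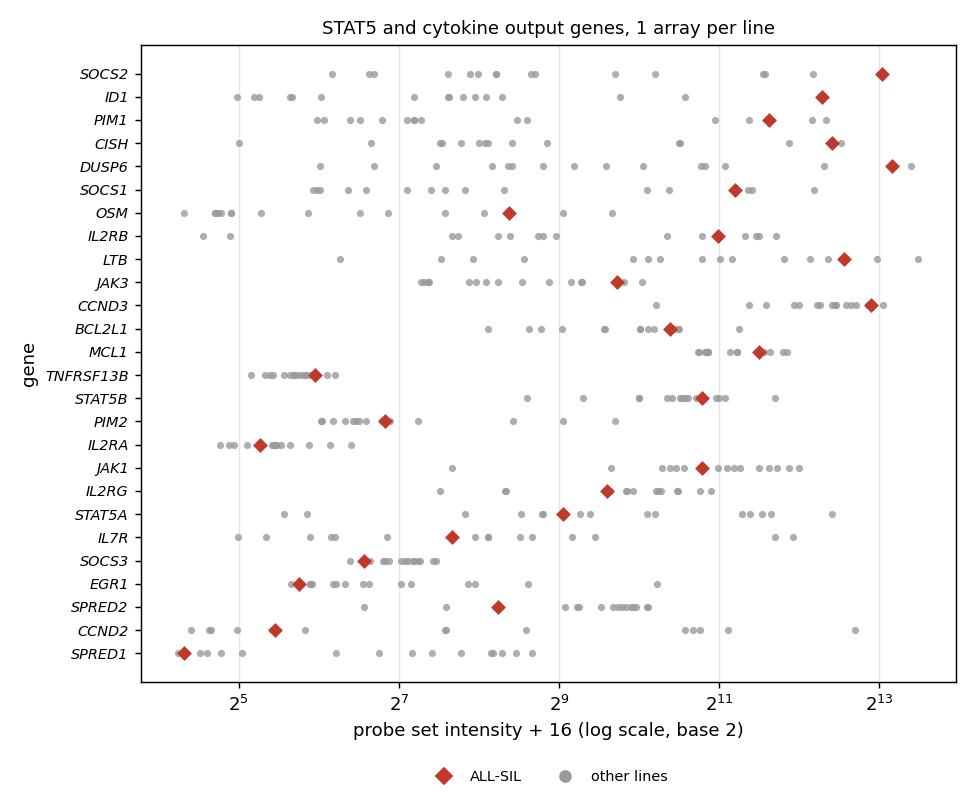
Probe set intensity + 16 on a log axis (base 2) for the 26 STAT5 and cytokine output genes, ordered by the difference between ALL-SIL and the median of the others, with 1 point per line from 1 array each (diamonds, ALL-SIL; circles, the other 15 lines). ALL-SIL is the highest line for SOCS2 (8378) and ID1 (4985), and lies among the lowest for SPRED1 (3.96).

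ABL1, the tyrosine kinase of the known fusion, read 5320.2 in ALL-SIL and from 870 in P12-ICHIKAWA to 2274 in MOLT-16 in the others with a median of 1753. No other line overlapped, and the difference of 1.59 was under the rule of 2. PEER, another line known for the fusion, read 2010.1. NUP214, the nuclear pore gene at the other end, read 1001 in ALL-SIL, behind LOUCY at 1803 and SKW-3 at 1041, and further NUP214 probe sets ranked ALL-SIL 14 and 13. The arrays give no value for the fusion transcript itself.

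Between and beside these genes, 0 of 13 measured members lay at least 2 above and 0 below. Over all genes the shares were 1.07% and 2.43%. UCK1, a uridine kinase, was highest in ALL-SIL at 1370 against 1163 in SUP-T11, and FAM78A read 2795 against a median of 1101, PRRC2B 2264 against 1207 and POMT1 616 against 361. FUBP3 (1801) and EXOSC2 (939) were near their medians of 1710 and 984. AIF1L (13.2), FIBCD1 (22.7), PRDM12 (12.5) and PLPP7 (3.61) were under the table median, and LAMC3 read 66.5. ABL1 thus had the largest difference from the other lines in this list.

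Of 26 measured genes in the list of tyrosine kinases and adaptors 2 lay at least 2 above and 0 below. Over all genes the shares were 1.07% and 2.43%. The 2 above were PDGFRB and GAB2, a docking protein of cytokine and kinase receptors. The list does not hold FGFR3 and EPHB1, the high receptor kinases described before. GAB2 read 4174 in ALL-SIL and 4027 in KOPT-K1, followed by HSB-2 at 2521, with a median of 232. JAK3 read 832 against 286, and FGFR1 320 against 870.3. GAB2 and SOCS2 had ALL-SIL and KOPT-K1 as their 2 highest lines, with HSB-2 next.

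Among 25 measured tumour suppressors and cell cycle inhibitors RB1 alone lay at least 2 below, and 0 above. Over all genes 2.43% lay below and 1.07% above. WT1 was highest in ALL-SIL at 1875 with 1599.6 in MOLT-16, and the inhibitor CDKN1A lowest at 3.06 with a median of 49.4. FBXW7 read 2224 and ATM 1010.3, above their medians of 1297 and 614. Among 19 measured apoptosis genes BMF alone was at least 2 above, at 621 in ALL-SIL and 234 in SUP-T13, the next line, with a median of 74.5. BCL2L11, another gene of the BH3-only group that promotes cell death, was also highest in ALL-SIL at 1913, with 1491 in TALL-1. BCL2 read 2131 against 823, BCL2L2 104 against 32.2, and CASP9 65.4, the lowest line, against 193. Genes on both sides of apoptosis control were therefore above their medians.

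Of 13 measured retinoid genes 1 was at least 2 above and 1 below, where 1.07% and 2.43% of all genes were. ALDH1A2, which makes retinoic acid, read 7.10 in ALL-SIL, the lowest line, where CCRF-CEM read 7332 and SUP-T13 8.60. DHRS3, a retinaldehyde reductase, read 356 against 45.5. Of 22 measured adhesion and chemokine receptor genes the integrin chain ITGAL was above, highest in ALL-SIL at 6636 with 5645 in SUP-T13, and ITGA6 below, at 72.5 against 1634. CXCR3 read 290.2 against 62.7.

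Cell division genes were close to the other lines. Of 16 proliferation genes and 18 mitotic checkpoint genes, 0 lay at least 2 above or below. Over all genes the shares were 1.07% and 2.43%. MCM3 at 7319 and MCM4 at 7365, parts of the replicative helicase, and the checkpoint kinases BUB1 at 3834 and BUB1B at 6973 were highest in ALL-SIL, with next lines at 6132, 6426, 3223 and 6756. CCNB1 was lowest at 2214, with 2309 in LOUCY. The 8 measured housekeeping genes differed by at most 0.52 log2 units from the others' medians, and the 12 HLA class I genes by at most 0.73.

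Markers of other cells were read as whole lists. Over all genes 1.07% lay at least 2 above and 2.43% at least 2 below. Of 11 natural killer and cytotoxic markers NKG7 lay at least 2 above, at 2099 against 224, and GZMA (29.6 against 640) and PRF1 (34.2 against 188) below. Of 9 B-cell markers IGLL1 lay below, at 29.8 against 1811, and 0 above. Of 11 stromal and endothelial markers PDGFRB alone lay above, and COL1A1 read 87.7, SPARC 9.73 and CDH5 1.62. None of 11 myeloid, 7 erythroid and megakaryocytic, 10 neural and 10 HLA class II genes lay at least 2 above or below. VIM, named because it had the highest value of that list, read 10736 against a median of 10847 in the others. PDGFRB was thus high in ALL-SIL while SPARC ranked 15 of 16.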

How the data were processed

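Per the labels, 1 total RNA from each of 16 T-ALL lines was biotin labelled, and each was read on its own Affymetrix array. The table deposited by the authors holds 1 linear intensity per probe set and array, from 0.6 to 24485.25. Which software, background correction and scaling they used is not given in the sources used here, and the intensities were used without further normalization. Lines were grouped by their cell line label. Values were analysed as log2(intensity + 16).

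Of 54675 probe sets, 62 were controls, 41091 named 1 gene in the platform's annotation (41037 matched a RefSeq GRCh38.p14 symbol, with 0 symbols updated), 1801 named several genes and 11721 none. For each of 19735 genes, the brightest of the probe sets naming it alone was used, by its mean on the 16 arrays. There is 1 culture and 1 array per line, so no replicate spread is known, and the number of arrays limits the precision. Gene order came from RefSeq. The 27 gene lists hold 439 genes, of which 401 were measured and 38 not analysed here.

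ALL-SIL, the gap rule and the lists were chosen with earlier results of these data known. Named genes are TLX1, the 20 widest gaps in each direction, the 2 genes on each side of the threshold, at most 5 members per list by difference, all members of the lists on homeobox genes, ABL1 to NUP214 and the genes around RB1 and TLX1, and neighbours of low genes where ALL-SIL was lowest in adjacent genes. Other genes named in the text, those shared with 1 line among them, were chosen after their values were seen. Alternatives changed the pseudocount, the normalization, the probe set per gene, a filter on low values, the lines compared and the threshold. Tables were computed in Python 3.11.15 with pandas 2.3.3 and numpy 2.4.6, and figures drawn with matplotlib 3.10.9.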

Additional observations from a re-analysis of the deposited data

Results flagged for a closer look

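Among the 13576 probe sets that name no gene, several genes or an unmatched symbol here, and so entered no comparison above, 215345_x_at stood 5.82 log2 units above the next line in ALL-SIL. It read 7204 in ALL-SIL and from 6.49 to 112 in the others, with a median of 16.4, and PEER was the next line. This was the only probe set of its kind with a gap of 2 or more on the high side. Probe sets whose names end in _x_at can bind several transcripts, and the source of the signal was not tested.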

How the results depend on the processing

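The 5 genes set apart high became 2 with log2(intensity + 64), 1 with the mean of all probe sets, 8 with the probe set of highest SD, 3 without _x_at and _s_at probe sets, 11 at a gap of 1.5 and 1 at a gap of 3. The 33 low genes became 13 with log2(intensity + 64), 53 with log2(intensity + 4), 18 with the mean of all probe sets, 56 at a gap of 1.5 and 19 at a gap of 3. Leaving out each other line in turn gave 5 to 8 high genes (8 without KOPT-K1) and 33 to 43 low genes. The 211 genes at least 2 above the others' median became 138 with log2(intensity + 64), and the 479 below became 254, or 294 with the mean of all probe sets. A larger pseudocount shrinks differences of dim genes by construction, and for the other settings the cause was not tested.

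The TLX1 gap ran from 4.34 to 5.62 over all settings. Of 24 other named gaps 16 fell under 2 under at least 1 setting and 8 did not. Of these 8 only PDK1 and SLC15A4 (2.44 and 2.68 with the mean of all probe sets) have further probe sets. PIM3, SMIM30, HDHD5, NT5C3B, CSRP1 and TP53BP2, like TLX1, have 1 each, so the choice of probe set could not move them, and SMIM30 and HDHD5 drop out without _x_at and _s_at probe sets. MGST3 fell to 0.06. ABCC8 reversed to -0.36 without _x_at and _s_at probe sets, which leaves only its dim probe set. No paired analysis was possible because ALL-SIL is 1 array and the labels give no replicate numbers. Genes near the table median cannot be told from background here.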

Other observations

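A further 5 probe sets without a single gene name here were set apart low in ALL-SIL. Probe set 203688_at read 13.6 in ALL-SIL and at least 231 in every other line, a gap of 3.06, and 201746_at read 4.82 against at least 107, with a median of 1625 in the others. A pair of probe sets, 201562_s_at and 201563_at, were low together, at 66.3 and 170.5 in ALL-SIL against at least 493 and 1082, with gaps of 2.63 and 2.56. The last, 238389_s_at, read 3.00 against at least 70.9.

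Genes low in ALL-SIL and in TALL-1, beside SMIM20, included TRAF5, an adaptor of tumour necrosis factor receptors (13.2 and 25.4 in the pair, at least 318 in the remaining 14), GGH, which trims folate polyglutamates (55.8 and 85.0, at least 482), and PRNP (6.48 and 10.0, at least 251). With DU528 it shared low values of PIMREG, a mitotic gene (5.90 and 8.65, at least 354), and ASRGL1, an asparaginase-like enzyme (20.8 and 39.3, at least 429). These genes were chosen after their values were seen, and the lines share no label beyond T-ALL.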
